A study of Mus musculus with 15 samples.

Results

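Gene expression in ventricles in which CELF2 had been induced for 24 h was compared with that in control ventricles. There were 3 hearts in each group, and the comparison covers the 10548 of 16199 genes in the table whose level averaged at least 1 RPKM over these 6 hearts. RPKM relates the reads on the constitutive coding exons of a gene to their length and to the reads of the library that map uniquely outside ribosomal and mitochondrial sequence. The 6 hearts belong to a series of 15, in which the others were taken at 12 h, 72 h and 7 d of induction. Induced mice carried MHCrtTA, in which a cardiac myosin heavy chain promoter drives the reverse tetracycline transactivator, together with TRECUGBP2, a tetracycline-responsive transgene for FLAG-tagged human CELF2. They ate doxycycline food for 24 h. Control mice carried MHCrtTA without TRECUGBP2 and ate doxycycline food for 72 h. All were FVB mice of 14 to 16 weeks that had been without food for 2 to 3 h before the doxycycline food, which held 2 g/kg by the labels, while a supplementary table of the study lists another dose. Atria and a piece of the apex were removed. The length of doxycycline feeding differed between the groups together with CELF2, and the effects of the 2 cannot be told apart. Neither the sex of the animals nor the time of day at harvest was stated.

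CELF proteins are RNA-binding proteins that recognise GU-rich sequence. In the nucleus they regulate the choice of alternative exons, and in the cytoplasm they lower the stability or translation of many mRNAs that they bind. CELF1 and CELF2 are abundant in the embryonic heart and scarce in the adult heart, where the opposing muscleblind proteins prevail.

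The hearts differed by more than their group. Sample titles carry a number of unstated meaning, which was the same for heart 1 of both groups (called code A here) and for hearts 2 and 3 of both groups (code B). Principal components of log2(RPKM + 0.5) in the 6 hearts separated the codes first (44.2% of the variance, of which 84.8% lay between codes and 7.4% between groups) and the groups second (30.1% of the variance, of which 81.3% lay between groups and 2.7% between codes). The code was a term in the fit, a choice made when the counts of an earlier fit with and without the code were known. Y-linked mRNA (Ddx3y, Eif2s3y, Uty and Kdm5d) was present in 24 h hearts 2 and 3 and in control heart 3, and at or near 0 in 24 h heart 1 and in control hearts 1 and 2. Without control heart 2, the remaining hearts match between the groups in both the code and Y-linked mRNA. The number of genes listed at 0 was 1892, 1766 and 1725 in the 24 h hearts and 1707, 1731 and 1718 in the control hearts, so 24 h heart 1 stood apart, and library depth is unknown. No pair of the 6 hearts held identical values.

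Over all tested genes, the log2 change, 24 h minus control, had a median of -0.099, and with median-ratio scaling between hearts it was 0.002, so changes are read against a shift of about that size. The shift was not the same for all genes. With the tested genes divided into 5 equal bins by the GC content of their coding sequence, the median log2 change fell step by step and was 0.003 in the lowest bin and -0.19 in the highest. The same order of the bins held within each title code, with medians between 0.085 and -0.247 in code A and between -0.029 and -0.163 in code B. Whether base composition of the libraries has a part in the counts below was not tested, and counts after removing the median deviation of each of 20 coding-GC bins from each heart are given beside them.

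**Figure D1:**
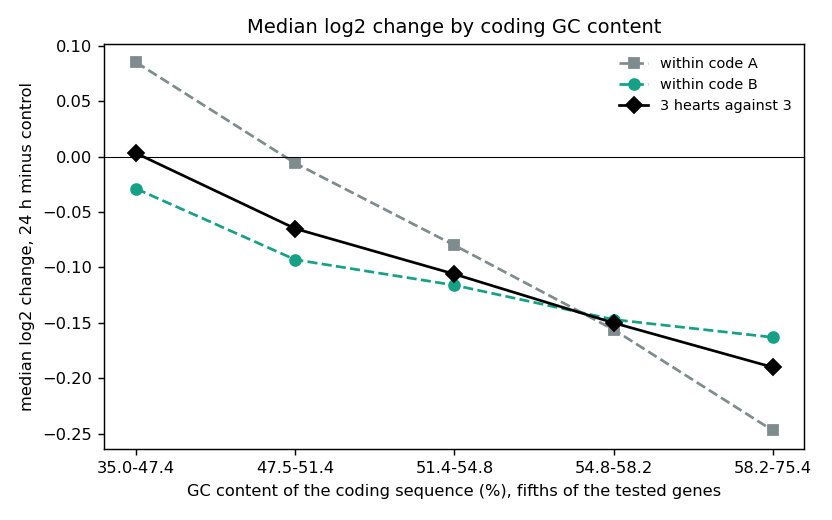
Median log2 change of log2(RPKM + 0.5), 24 h minus control, on the y axis, for 5 equal bins of the tested genes by GC content of the coding sequence on the x axis. Squares are the single pair of hearts with code A, circles the hearts with code B (2 against 2), and diamonds all 3 hearts against 3. All 3 lines fall from left to right, and the diamonds run from 0.003 to -0.19.

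Celf2 mRNA was 15.3-fold higher in induced hearts. Its level was 173, 165 and 112 RPKM in the 24 h hearts, against 8.54, 11.3 and 9.64 RPKM in the control hearts. Every induced heart lay far above every control heart, in keeping with the labels. The log2 change was 3.85 (standard error, SE, 0.23, and adjusted p = 2.77e-06 from limma, the smallest p of all tested genes). An exact permutation test of the difference of mean RPKM (two-sided) had p = 0.1, the smallest that 3 hearts against 3 allow. The ratio was 20.3 within code A and 13.2 within code B. The mouse gene (Cugbp2 in the table) spans chromosome 2, 6460751 to 7002348, in mm9 on the minus strand, and its exons overlap those of Gm17437 on the opposite strand. Reads were assigned to the mouse gene, so the value holds endogenous transcripts together with those transgene reads that mapped to mouse sequence. The transgene is human, and the share of its reads that mapped is unknown.

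Celf1, the closest paralog of Celf2, was lower in induced hearts. Its level was 13.7, 12.4 and 11.03 RPKM at 24 h, against 22.6, 24.4 and 24.5 RPKM in control hearts. The groups did not overlap and each was tight, with a log2 change of -0.92 (SE 0.15, adjusted p = 0.0103 from limma). Leaving out 1 heart at a time, Celf1 passed in 4 of 6 fits, and it did not pass in the fit without the title code (adjusted p = 0.159). Levels at the other times, which were compared with the same 3 controls, were 22.7, 15.5 and 13.04 RPKM at 12 h, 10.5, 10.01 and 6.27 RPKM at 72 h and 12.9, 11.8 and 8.5 RPKM at 7 d. Among 42 tested CELF, muscleblind and other splicing regulators, Celf2 rose and Celf1 fell, and no other passed. Of all tested genes 0.55% rose and 2.53% fell, and a single lower gene in a list of this size is close to that share. The median log2 change of the list was -0.09. The muscleblind gene Mbnl1 was at 23.9, 22.3 and 14.7 RPKM in 24 h hearts, against 25.01, 23.4 and 19.5 RPKM in control hearts. Its paralog Mbnl2 was at 40.2, 44.1 and 34.04 RPKM in 24 h hearts, against 33.2, 42.6 and 42.3 RPKM in control hearts. The groups overlapped in both genes.

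With the title code in the fit, 58 genes (0.55% of those tested) rose and 267 (2.53%) fell at an adjusted p under 0.05. Of these, 3 rose and 24 fell by at least 2-fold. All 325 differed in the same direction within both codes. They were selected by a fit to the same hearts with the code as a term, so this count lends no independent support. Of all tested genes, 50.6% were lower and 16.0% higher within both codes. Over all tested genes, 292 (2.77%) had every 24 h heart above every control heart and 1526 (14.5%) had every 24 h heart below, against 52 of the 58 higher and 217 of the 267 lower genes. With median-ratio scaling, 132 genes (1.25%) were higher and 85 (0.806%) lower, and with the coding-GC adjustment 83 (0.787%) and 40 (0.379%), so that the excess of lower genes was not kept by either. Leaving out 1 heart at a time gave between 8 and 36 higher and between 28 and 213 lower genes, and 26 of the 325 passed in all 6 such fits. Without the title code in the fit, 10 genes (0.0948%) passed, and these 10 were all among the 325.

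**Figure D2:**
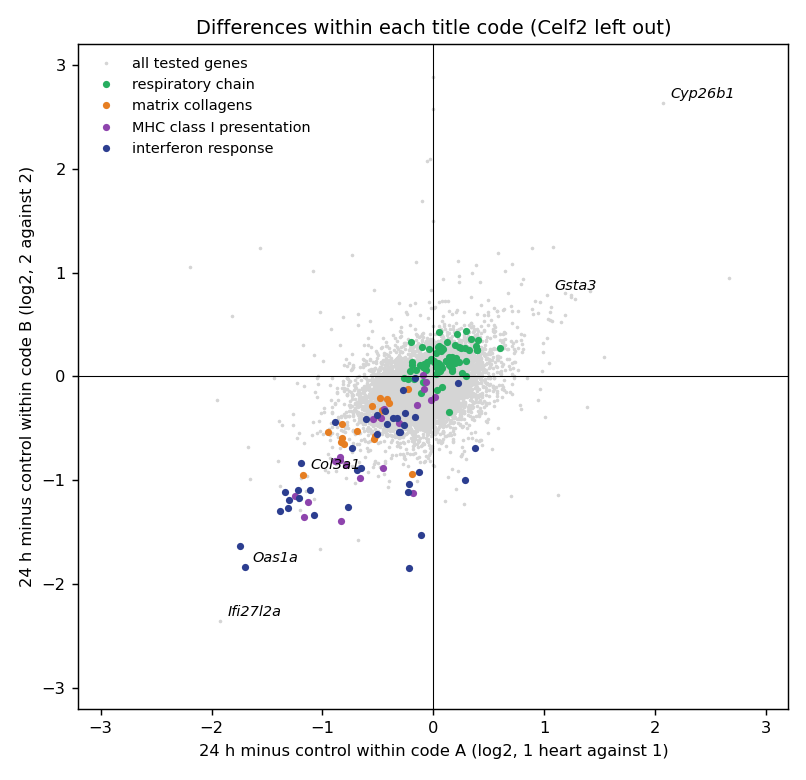
Difference of log2(RPKM + 0.5), 24 h minus control, within title code A on the x axis (1 heart against 1) and within code B on the y axis (2 against 2), 1 point per tested gene with Celf2 left out. Coloured points are members of the lists named in the legend. Of the 38 interferon response genes, 35 lie at lower left, below 0 on both axes, and 55 of the 80 respiratory chain genes lie at upper right, above 0 on both.

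The 10 genes that passed in both fits were Celf2, Cyp26b1, Gsta3 and Ces1d, which rose, and Ifit3, Ifit3b, Oasl2, Rtp4, Col3a1 and Snap47, which fell. After Celf2, the largest increase was that of Cyp26b1, which encodes a cytochrome P450 that inactivates retinoic acid. Cyp26b1 was at 7.39, 9.73 and 8.67 RPKM in 24 h hearts, against 1.38, 0.62 and 1.69 RPKM in control hearts. The groups were widely apart, with a log2 change of 2.44 (SE 0.38, adjusted p = 0.00842 from limma, and adjusted p = 0.0335 without the code), and the gene passed whichever heart was left out. The high level was seen at 24 h and was not seen at the other times, when Cyp26b1 was at 1.63, 3.83 and 1.38 RPKM (12 h), 0.67, 1.67 and 0.89 RPKM (72 h) and 1.02, 3.23 and 1.31 RPKM (7 d). In mm9 the gene Cyp26b1 spans chromosome 6, 84521938 to 84543740 (minus strand).

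Among 18 tested genes of retinoid metabolism and signalling, Cyp26b1 and Adh1 rose and none fell (0.55% of all tested genes rose). The list median was -0.034. Adh1, an alcohol dehydrogenase that can oxidise retinol, was at 18.8, 31.1 and 24.1 RPKM in 24 h hearts, against 11.6, 12.7 and 18.7 RPKM in control hearts. The groups barely separated, at 18.75 and 18.73 RPKM, and the log2 change was 0.76 (adjusted p = 0.043 from limma). Adh1 lost its call in 5 of the 6 fits with a heart left out and with Y-linked mRNA as a covariate (adjusted p = 0.0999). The retinal oxidising gene Aldh1a1 was at 16.2, 21.1 and 19.98 RPKM in 24 h hearts, against 14.3, 13.5 and 15.7 RPKM in control hearts, and did not pass (log2 change 0.38, adjusted p = 0.112).

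**Figure D3:**
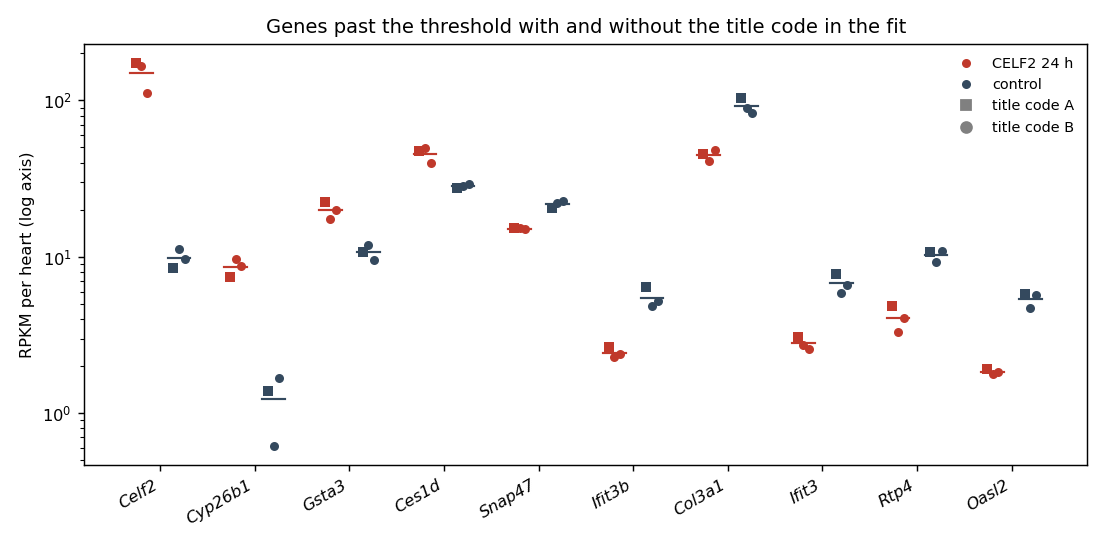
Level of the 10 genes that passed with and without the title code in the fit, in RPKM on a log axis. Red points on the left of each pair are the 3 hearts at 24 h and dark points on the right the 3 control hearts, squares mark code A and circles code B, and lines are the group means. In each of the 10 genes the groups do not overlap, and Cyp26b1 averages 8.60 RPKM at 24 h and 1.23 RPKM in control hearts.

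Interferon response genes were lower in induced hearts. Type I interferons signal through a transcription factor complex that holds STAT2 and IRF9 and binds the interferon-stimulated response element, and the induced genes include sensors and effectors that act against viral RNA. Of 38 tested members of the list, 15 fell and 0 rose (2.53% of all tested genes fell), and 31 had every 24 h heart below every control heart (14.5% of all tested genes). The list median was a log2 change of -0.68, against -0.099 over all tested genes, and 35 members were lower within both codes (92.1%, against 50.6% of all tested genes). Their coding GC content, with a median of 49.9%, was below the 53.2% of all tested genes. With median-ratio scaling 13 were lower, and with the coding-GC adjustment 11 were lower and the median was -0.67.

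Among the genes that act on double-stranded RNA, the oligoadenylate synthetases had the largest changes. Oas1a was at 1.52, 0.70 and 1.68 RPKM in 24 h hearts, against 6.04, 5.43 and 5.11 RPKM in control hearts (log2 change -1.79, adjusted p = 0.0107 from limma). Oas1g was at 0.76, 0.34 and 0.97 RPKM in 24 h hearts, against 3.72, 2.90 and 3.01 RPKM in control hearts (log2 change -1.67, adjusted p = 0.0104). These are near-identical neighbours on chromosome 5, and the split of reads between them is uncertain. Oas1g averaged 0.69 RPKM in 24 h hearts, so it reached the minimum level through the control hearts. Oasl2, which encodes a ubiquitin-like relative of the synthetases, was at 1.91, 1.77 and 1.84 RPKM in 24 h hearts, against 5.78, 4.71 and 5.67 RPKM in control hearts. The 3 induced hearts were nearly equal and far below the controls, with a log2 change of -1.33 (SE 0.20, adjusted p = 0.00745, and adjusted p = 0.0363 without the code). Oas2, another synthetase, had a log2 change of -1.19 (adjusted p = 0.0256) and passed in none of the 6 fits with a heart left out.

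Some members of the IFIT family, to which Ifit3 belongs, bind viral RNA that lacks the host cap structure. Ifit3 was at 3.07, 2.72 and 2.59 RPKM in 24 h hearts, against 7.82, 5.89 and 6.64 RPKM in control hearts. Ifit3 had the smallest adjusted p after Celf2 (log2 change -1.14, SE 0.12, adjusted p = 0.00145, and adjusted p = 0.027 without the code), and passed whichever heart was left out. Its near-identical neighbour Ifit3b had a log2 change of -1.02 (adjusted p = 0.0035) and may share reads with it. In mm9 Ifit3 spans chromosome 19, 34658021 to 34663221 (plus strand). At the other times Ifit3 was at 4.23, 3.68 and 2.66 RPKM (12 h), 2.68, 3.21 and 3.31 RPKM (72 h) and 2.74, 3.11 and 3.70 RPKM (7 d), all below the lowest control heart.

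To show the sequence context of these genes, the 250 bases before the start of each gene were searched for GAAANNGAA, letters shared by interferon-stimulated response elements, on both strands and counting overlapping matches separately. RefSeq promoters (GRCm38.p6) were matched for 29 of the 38 tested members, of which 15 (51.7%) held the letters, against 603 of 8463 tested genes with a promoter (7.1%). Of the 15 members that fell, 12 had a promoter and 6 of these held the letters. A match describes the sequence and is not a site shown to be used. The 6 are printed 5′ to 3′ on the strand of the gene, from the first to the last match with up to 20 bases on either side, with matches in capitals and read on either strand.
Ifit3 (chromosome 19, 34583354 to 34583455): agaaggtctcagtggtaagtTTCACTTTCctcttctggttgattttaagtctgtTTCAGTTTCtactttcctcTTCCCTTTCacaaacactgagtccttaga
Ifit1 (chromosome 19, 34640760 to 34640833): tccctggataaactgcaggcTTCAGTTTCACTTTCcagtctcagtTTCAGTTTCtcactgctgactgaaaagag
Oas1a (chromosome 5, 120907526 to 120907565): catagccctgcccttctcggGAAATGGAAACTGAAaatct
Oas1g (chromosome 5, 120887614 to 120887651): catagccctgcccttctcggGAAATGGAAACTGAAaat
Bst2 (chromosome 8, 71537568 to 71537622): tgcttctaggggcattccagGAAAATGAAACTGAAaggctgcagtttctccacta
Stat2 (chromosome 10, 128270257 to 128270305): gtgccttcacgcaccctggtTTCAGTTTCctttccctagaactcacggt
Oas1a and Oas1g share the stretch shown. Ifit1, Bst2 and Stat2 are named here because they fell and their windows held the letters, which was seen after the values.

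Regulators of the interferon response were lower as well. Irf7, the transcription factor that amplifies interferon production, was at 2.14, 2.54 and 2.75 RPKM in 24 h hearts, against 5.99, 6.22 and 7.20 RPKM in control hearts (log2 change -1.23, adjusted p = 0.0229 from limma). Usp18, a protease that removes ISG15 and restrains interferon signalling, was at 0.82, 0.86 and 1.2 RPKM in 24 h hearts, against 2.83, 3.26 and 2.37 RPKM in control hearts (log2 change -1.19, adjusted p = 0.00753). In both genes each induced heart was below every control heart. Usp18 averaged 0.96 RPKM in 24 h hearts and reached the minimum level through the control hearts. Irf7 lost its call with the coding-GC adjustment (adjusted p = 0.0672) and in each of the 6 fits with a heart left out. Stat2 (log2 change -0.83, adjusted p = 0.0205) also fell. The GTPase Igtp, an interferon gamma target, was at 16.1, 5.77 and 7.57 RPKM in 24 h hearts, against 18.8, 18.3 and 34.1 RPKM in control hearts. Its 24 h heart 1 lay close to the controls, and it did not pass (log2 change -1.30, adjusted p = 0.275).

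Other interferon-induced genes included the largest decrease of all called genes. Ifi27l2a, a small membrane protein gene, was at 14.1, 6.07 and 9.39 RPKM in 24 h hearts, against 54.8, 55.5 and 29.9 RPKM in control hearts (log2 change -2.21, SE 0.35, adjusted p = 0.00979 from limma). The groups were apart and the gene passed whichever heart was left out, while its exons overlap those of Ifi27l2b on the same strand. Lgals3bp, a secreted galectin-binding glycoprotein gene, was at 8.34, 10.1 and 9.60 RPKM in 24 h hearts, against 21.5, 23.1 and 25.7 RPKM in control hearts (log2 change -1.28, adjusted p = 0.005). Rtp4, whose product aids receptor transport and is induced by interferon, was at 4.83, 3.32 and 4.04 RPKM in 24 h hearts, against 10.7, 9.22 and 10.9 RPKM in control hearts (log2 change -1.25, adjusted p = 0.00929, and adjusted p = 0.0363 without the code). The exception within the list was Rsad2, the antiviral gene viperin, with a log2 change of 0.03. Leaving out 1 heart at a time, between 3 (without 24 h heart 1) and 7 of the 15 lower members kept their call, and the list median stayed between -0.88 and -0.53. The 3 that kept it in all 6 fits were Ifit3, Rtp4 and Lgals3bp.

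MHC class I presentation, by which peptides of cellular proteins are shown to T cells, was measured in 21 genes. All 21 had a negative log2 change, as had 7655 of all 10548 tested genes, and their median was -0.74 against -0.099. In 15 every 24 h heart was below every control heart (14.5% of all tested genes), and 4 fell and 0 rose (2.53% of all tested genes fell). B2m, the invariant light chain of class I molecules, was at 273, 179 and 203 RPKM in 24 h hearts, against 487, 580 and 432 RPKM in control hearts (log2 change -1.20, SE 0.26, adjusted p = 0.0284 from limma). The heavy chain gene H2-K1 was at 46.5, 51.4 and 61.7 RPKM in 24 h hearts, against 111, 139 and 114 RPKM in control hearts (log2 change -1.19, adjusted p = 0.037). Each induced heart was below every control heart in both genes. H2-Q7, a nonclassical heavy chain gene, had a log2 change of -1.18 (adjusted p = 0.043), and its near-identical neighbour H2-Q8, which the list does not hold, one of -1.26 (adjusted p = 0.0149). Tapbp, the tapasin gene of the peptide-loading complex, had a log2 change of -0.45 (adjusted p = 0.0332), and its exons overlap those of Zbtb22.

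The immunoproteasome subunits Psmb8 and Psmb9, which replace constitutive subunits when interferon is present, had log2 changes of -0.74 and -0.87 with non-overlapping groups, and neither passed (adjusted p = 0.104 and 0.0957). Of 36 proteasome subunits 0 passed in either direction. The class I genes were less certain than the interferon genes, since with median-ratio scaling or the coding-GC adjustment 1 of 21 members passed, and leaving out any 1 heart, at most 1 of the 4 kept its call (none without any of the 24 h hearts or control heart 1 or 3). H2-K1 and other class I genes are near-identical in sequence, so reads may be split among them. H2-DMb2, which belongs to class II peptide loading, also fell. It was at 1.40, 0.59 and 0.93 RPKM in 24 h hearts, against 3.36, 3.58 and 3.31 RPKM in control hearts (log2 change -1.45, adjusted p = 0.0339). H2-DMb2 lost its call with median-ratio scaling (adjusted p = 0.0505), with Y-linked mRNA as a covariate (0.076), with the coding-GC adjustment (0.0745) and in each of the 6 fits with a heart left out.

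**Figure D4:**
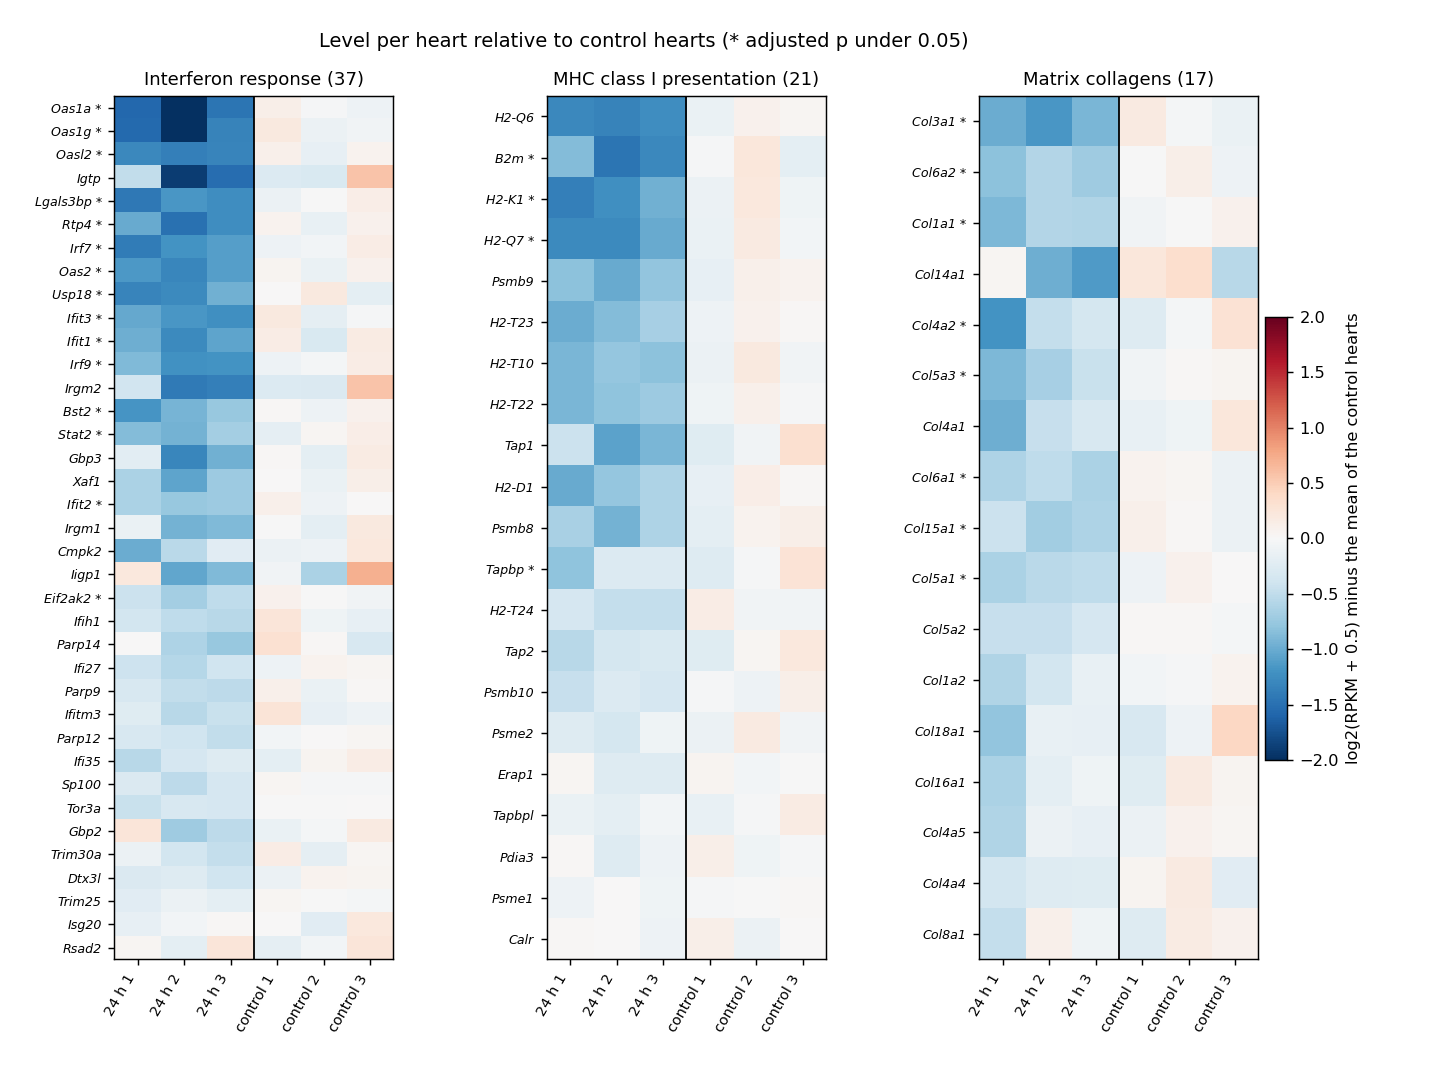
Level of the tested interferon response (1 member not shown), MHC class I and matrix collagen genes in each heart, as log2(RPKM + 0.5) minus the mean of the 3 control hearts (colour scale), with the 24 h hearts in the left columns and the control hearts in the right columns. Genes run from the lowest to the highest log2 change, and an asterisk marks an adjusted p under 0.05. The left columns are mostly blue, with 24 h heart 1 nearer to the controls in Igtp, Irgm1 and Iigp1.

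Markers of immune cells were measured beside these genes. In whole ventricle, fewer cells of a type and less RNA per cell cannot be told apart. Of 21 tested macrophage markers, 1 rose and 0 fell, while 0.55% of all tested genes rose and 2.53% fell. In 8 every 24 h heart was below every control heart (14.5% of all tested genes). The markers had a median log2 change of -0.18, against -0.099 over all tested genes. Their summed level was 239 to 268 RPKM in 24 h hearts, against 313 to 354 RPKM in control hearts. Without Cd74, a class II gene that interferon also induces, it was 205 to 228 RPKM, against 249 to 258 RPKM. The defining macrophage gene Csf1r was at 6.2, 6.98 and 6.58 RPKM in 24 h hearts, against 7.56, 7.06 and 7.49 RPKM in control hearts, with a log2 change of -0.15 (adjusted p = 0.578). Lyve1, a receptor of resident macrophages and lymphatic vessels, rose (log2 change 0.48, adjusted p = 0.043). All 19 lymphocyte markers in the table averaged below 1 RPKM, with summed levels of 2.6 to 3.6 RPKM in 24 h hearts, against 2.5 to 3.3 RPKM in control hearts. The part of immune cell number in the interferon and class I results was not tested.

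Ctla4, an inhibitory receptor of T cells, was nevertheless among the 12 largest increases of called genes with non-overlapping groups. It was at 2.37, 1.55 and 1.98 RPKM in 24 h hearts, against 0.99, 1.05 and 0.91 RPKM in control hearts (log2 change 0.72, adjusted p = 0.0259 from limma). Ccl12, a monocyte-attracting chemokine gene, was at 0.39, 0.12 and 0.83 RPKM in 24 h hearts, against 2.30, 1.06 and 1.57 RPKM in control hearts (log2 change -1.21, adjusted p = 0.0267). It was the 1 member of 36 tested chemokine, cytokine and receptor genes that passed, while 2.53% of all tested genes fell. Ccl12 kept its call in 2 of the 6 fits with a heart left out, and lost it with the coding-GC adjustment (adjusted p = 0.0673). Ctla4 kept its call in 1 of these 6 fits. Ccl12 averaged 0.447 RPKM in 24 h hearts and Ctla4 0.983 RPKM in control hearts, so each reached the minimum level through its higher group. The same held, through the control hearts, for Oas1g, Usp18, H2-DMb2, Cidec and Axin2. In 24 h hearts these averaged 0.69, 0.96, 0.973, 0.75 and 0.983 RPKM. The interferon receptor gene Ifnar1, at 5.61, 4.99 and 4.68 RPKM in 24 h hearts and 5.32, 4.78 and 5.70 RPKM in control hearts, overlapped between the groups.

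Collagen genes were lower in induced hearts. Fibrillar collagens bear the tension of the heart wall, collagen VI links cells to the matrix, and collagen IV forms basement membranes. Of 17 tested collagen genes 8 fell and 0 rose, against 2.53% of all tested genes that fell. All 17 were lower within both codes, as were 50.6% of all tested genes, and the median log2 change was -0.58 against -0.099. Col3a1, a fibrillar collagen of fibroblasts, was at 45.6, 40.7 and 48.4 RPKM in 24 h hearts, against 104, 89.2 and 83.1 RPKM in control hearts. Every induced heart had less than the lowest control heart by a wide margin, with a log2 change of -1.02 (SE 0.13, adjusted p = 0.00378 from limma, and adjusted p = 0.0335 without the code). Col3a1 passed whichever heart was left out, and in mm9 it spans chromosome 1, 45368383 to 45406551 (plus strand). At the other times it was at 73.4, 81.9 and 81.2 RPKM (12 h), 63.1, 69.8 and 65.8 RPKM (72 h) and 68.4, 101 and 118 RPKM (7 d).

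Col6a2 was at 19.8, 23.3 and 21.2 RPKM in 24 h hearts, against 34.99, 38.2 and 32.6 RPKM in control hearts (log2 change -0.70, adjusted p = 0.005 from limma). Its partner chain Col6a1 had a log2 change of -0.58 (adjusted p = 0.0107) and Col5a1, a minor fibrillar collagen, one of -0.56 (adjusted p = 0.0192). Col1a1, the main fibrillar collagen, was at 27.6, 34.6 and 34.1 RPKM in 24 h hearts, against 49.4, 51.5 and 55.3 RPKM in control hearts (log2 change -0.70, adjusted p = 0.0261), and it passed in none of the 6 fits with a heart left out. Collagen genes are rich in GC, with a median of 59.6% of the coding sequence. With the coding-GC adjustment 3 of the 17 passed and the median was -0.38, and with median-ratio scaling 3 passed and the median was -0.47. Leaving out 1 heart at a time, 2 (without 24 h heart 1, 24 h heart 3 or control heart 1) to 4 of the 8 kept their call, and Col3a1 and Col6a2 kept it throughout.

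Enzymes that act on collagen were among 41 other matrix genes, of which 5 fell and 0 rose (2.53% of all tested genes fell). The lysyl oxidases cross-link collagen and elastin. Loxl2 was at 3.38, 3.03 and 3.11 RPKM in 24 h hearts, against 6.99, 6.10 and 4.96 RPKM in control hearts (log2 change -0.82, adjusted p = 0.00378 from limma). Loxl1 was at 8.64, 11.1 and 11.2 RPKM in 24 h hearts, against 15.0, 18.1 and 16.5 RPKM in control hearts (log2 change -0.66, adjusted p = 0.0035). Both had non-overlapping groups and passed whichever heart was left out. Their relative Loxl3 was at 1.33, 1.77 and 1.31 RPKM in 24 h hearts, against 1.43, 1.59 and 1.67 RPKM in control hearts, which overlapped (log2 change -0.07, adjusted p = 0.728). P4ha1, a subunit of the enzyme that hydroxylates collagen prolines, was at 28.1, 24.2 and 29.8 RPKM in 24 h hearts, against 20.3, 23.1 and 23.6 RPKM in control hearts, with every 24 h heart above, and did not pass (log2 change 0.29, adjusted p = 0.101). Emilin1, an elastic fibre protein, and Pcolce, an enhancer of procollagen processing, had log2 changes of -0.49 and -0.38 (adjusted p = 0.0147 and 0.0204), which were -0.29 and -0.19 with the coding-GC adjustment and then did not pass. The median of the 41 genes was -0.073, and it was 0.008 with median-ratio scaling. Timp4, a cardiac inhibitor of metalloproteinases chosen after its values were seen, was at 9.11, 18.8 and 15.2 RPKM in 24 h hearts, against 4.68, 5.06 and 9.40 RPKM in control hearts, which overlapped (log2 change 1.12, adjusted p = 0.104).

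Fibroblast markers other than collagens moved less than the collagens. Of 25 tested fibroblast markers 2 fell, Col3a1 and Col1a1 (2.53% of all tested genes fell). In 9 of the 25 every 24 h heart was below every control heart (14.5% of all tested genes). The summed level of the list was 1490.0 to 1539 RPKM in 24 h hearts, against 1488 to 1640 RPKM in control hearts. Without its 3 collagens the sum was 1360.4 to 1432 RPKM in 24 h hearts, against 1295 to 1437 RPKM in control hearts. The remaining 22 had a median log2 change of -0.20, against -0.099 over all tested genes. In 6 of these 22 every 24 h heart was below every control heart. Dcn, the decorin gene, was at 390.4 RPKM on average in 24 h hearts and 332 RPKM in control hearts. The part of fibroblast number in the collagen result was not tested.

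Respiratory chain genes were slightly higher in induced hearts. These nuclear genes encode subunits of the complexes that pass electrons to oxygen and of the ATP synthase. Of 80 tested genes 7 rose and 0 fell (0.55% of all tested genes rose). A positive log2 change was seen in 70, and in 2893 of all 10548 tested genes, and the median was 0.13 against -0.099 over all tested genes. Ndufv2, a subunit of complex I, was at 598, 494 and 478 RPKM in 24 h hearts, against 455, 406 and 408 RPKM in control hearts (log2 change 0.30, SE 0.059, adjusted p = 0.0204 from limma). Uqcrb, a subunit of complex III, was at 1200.0, 1012 and 1084 RPKM in 24 h hearts, against 980.4, 786 and 764 RPKM in control hearts (log2 change 0.39, adjusted p = 0.0148). The groups did not overlap in either gene. Ndufa6, of complex I, rose likewise (log2 change 0.35, adjusted p = 0.0337). Ndufa4 passed with overlapping groups, at 1620, 1384 and 1359 RPKM in 24 h hearts, against 1402, 1045 and 1026 RPKM in control hearts, since its heart of code A was the highest of each group (log2 change 0.34, adjusted p = 0.0204).

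All of these are small changes, and of the 7 calls none was kept without 24 h heart 3 or control heart 2, 1 without 24 h heart 1, control heart 1 or control heart 3, and 4 without 24 h heart 2. With median-ratio scaling 13 members passed and with the coding-GC adjustment 9, with medians of 0.24 and 0.23. Among 75 mitochondrial ribosome proteins 2 rose, beside 0.55% of all tested genes. The 2 were Mrps36 (log2 change 0.39, adjusted p = 0.0296) and Mrps35 (log2 change 0.26, adjusted p = 0.049). With a heart left out, Mrps36 passed in 1 of 6 fits and Mrps35 in none. Neither passed with Y-linked mRNA as a covariate (adjusted p = 0.0622 and 0.0965). Both passed with median-ratio scaling and with the coding-GC adjustment. Of 80 cytosolic ribosome proteins 0 passed, with a median of -0.018.

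Of the 43 tested detoxification genes, 3 rose and 1 fell (0.55% of all tested genes rose and 2.53% fell). A negative log2 change was seen in 24, and in 7655 of all 10548 tested genes. The list median was -0.039, which changed sign with median-ratio scaling. Gsta3, a glutathione transferase that detoxifies lipid peroxidation products, was at 22.4, 17.6 and 19.8 RPKM in 24 h hearts, against 10.7, 11.9 and 9.57 RPKM in control hearts (log2 change 0.86, SE 0.13, adjusted p = 0.00862 from limma, and adjusted p = 0.0363 without the code). The 3 hearts of each group lay close together. At the other times Gsta3 was below the control hearts, at 6.83, 8.29 and 6.33 RPKM (12 h), 7.04, 7.17 and 7.73 RPKM (72 h) and 3.41, 3.35 and 2.48 RPKM (7 d). Ces1d, a carboxylesterase that hydrolyses lipid esters, was at 47.2, 49.9 and 40.0 RPKM in 24 h hearts, against 27.6, 28.2 and 29.1 RPKM in control hearts (log2 change 0.68, adjusted p = 0.00966, and adjusted p = 0.0363 without the code). Fmo2, a flavin monooxygenase, was at 19.4, 25.6 and 21.1 RPKM in 24 h hearts, against 9.05, 13.7 and 15.3 RPKM in control hearts (log2 change 0.80, adjusted p = 0.0108).

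The antioxidant gene Gpx1 moved the other way (log2 change -0.35, adjusted p = 0.0204), which was -0.16 with the coding-GC adjustment (adjusted p = 0.379). With median-ratio scaling 6 detoxification genes rose and 0 fell. Without 24 h heart 1 none of the 4 kept its call, and without control heart 1 only 1 did.

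The remaining large increases came from genes of varied function. Cdh19, a cadherin of the Schwann cell lineage, was at 4.2, 2.44 and 2.72 RPKM in 24 h hearts, against 1.27, 1.07 and 1.42 RPKM in control hearts (log2 change 1.02, adjusted p = 0.005 from limma). Fas, the death receptor gene, was at 5.30, 4.59 and 3.97 RPKM in 24 h hearts, against 2.33, 2.65 and 2.85 RPKM in control hearts (log2 change 0.71, adjusted p = 0.0107). Mcf2l, which encodes a guanine nucleotide exchange factor, had a log2 change of 0.77 (adjusted p = 0.00988). Slc10a6, a transporter of sulfated steroids, and Spock2, a matrix proteoglycan, had log2 changes of 0.86 and 0.80 (adjusted p = 0.0378 and 0.04), and both lost their call in each of the 6 fits with a heart left out. Snap47, a membrane fusion protein, was at 15.2, 15.2 and 15.0 RPKM in 24 h hearts, against 20.5, 22.2 and 22.6 RPKM in control hearts (log2 change -0.51, SE 0.074, adjusted p = 0.00629, and adjusted p = 0.0363 without the code).

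Few cardiomyocyte genes passed. Of 23 cardiomyocyte markers 0 passed, with a median of 0.013 and a summed level of 69172 to 76221 RPKM in 24 h hearts, against 68048 to 69580 RPKM in control hearts, so the labelled tissue carried its defining genes. Of 34 sarcomere genes 2 rose (0.55% of all tested genes rose). Myom2, a protein of the M band, was at 196, 267 and 215 RPKM in 24 h hearts, against 154, 90.5 and 160 RPKM in control hearts, with control heart 2 the lowest (log2 change 0.78, adjusted p = 0.0402 from limma, and adjusted p = 0.0997 without control heart 2). Myoz2, a calcineurin-binding protein of the Z disc, was at 556, 522 and 518 RPKM in 24 h hearts, against 431, 424 and 441 RPKM in control hearts (log2 change 0.30, adjusted p = 0.0203).

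Among 26 heart stress genes Fhl2, a cofactor that responds to load, rose (log2 change 0.33, adjusted p = 0.0465), while 0.55% of all tested genes rose. The natriuretic peptide gene Nppa was at 39.6, 108 and 61.7 RPKM in 24 h hearts, against 22.5, 27.9 and 64.1 RPKM in control hearts, and the groups overlapped (log2 change 0.90, adjusted p = 0.228). Of 29 calcium cycling genes the beta-adrenergic receptor gene Adrb1 fell with overlapping groups (log2 change -0.41, adjusted p = 0.0485), and of 37 ion channel genes Cacna1g, a T-type calcium channel, fell (log2 change -0.44, adjusted p = 0.0343). A single called gene in lists of this size is close to the 2.53% of all tested genes that fell, and neither gene passed with median-ratio scaling (adjusted p = 0.118 and 0.112) or in any fit with a heart left out. The chaperone gene Hspa8 rose (log2 change 0.39, adjusted p = 0.0238), the only one of 43 chaperone genes to pass. Neither Hspa8 nor Fhl2 passed in any fit with a heart left out or with Y-linked mRNA as a covariate (adjusted p = 0.063 and 0.102).

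Of 21 circadian clock genes 1 rose and 2 fell (0.55% of all tested genes rose and 2.53% fell). Nr1d1, which encodes the repressor REV-ERB alpha, was at 13.3, 28.8 and 32.8 RPKM in 24 h hearts, against 43.5, 46.1 and 52.8 RPKM in control hearts, with 24 h heart 1 well below the rest (log2 change -1.01, adjusted p = 0.0119 from limma). Its exons overlap those of Thra on the opposite strand. Dbp, an output transcription factor of the clock, was at 29.5, 58.1 and 59.0 RPKM in 24 h hearts, against 78.9, 103 and 104 RPKM in control hearts (log2 change -1.01, adjusted p = 0.0278). Nfil3, which opposes Dbp, was at 9.38, 7.47 and 6.19 RPKM in 24 h hearts, against 4.36, 5.54 and 4.79 RPKM in control hearts (log2 change 0.59, adjusted p = 0.0461). Without 24 h heart 1 or control heart 1 none of the 3 kept its call, and without any other heart 1 did. These genes change through the day, and time of harvest and CELF2 cannot be told apart.

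Growth and lipid synthesis genes were lower in small numbers, beside 2.53% of all tested genes that fell. Of 26 cell cycle genes 3 fell, namely Ccnd1 (log2 change -0.74, adjusted p = 0.0136 from limma), Ccnd3 (-0.48, adjusted p = 0.021) and Mcm2 (-0.51, adjusted p = 0.0476). The cyclin D1 gene Ccnd1 was at 8.89, 11.5 and 13.4 RPKM in 24 h hearts, against 16.4, 19.2 and 21.5 RPKM in control hearts. Of 26 cholesterol and fatty acid synthesis genes 3 fell, the fatty acid synthase gene Fasn (log2 change -0.74, adjusted p = 0.0412), the sterol regulator Srebf2 (-0.42, adjusted p = 0.0318) and the mevalonate pathway gene Pmvk (-0.42, adjusted p = 0.0411). Fasn was at 4.2, 4.49 and 4.22 RPKM in 24 h hearts, against 6.06, 10.3 and 6.78 RPKM in control hearts, with control heart 2 the highest. None of these 3 passed with median-ratio scaling, and 0 of the 26 cell cycle genes passed with the coding-GC adjustment. Without 24 h heart 1 or control heart 1 none of these 6 kept its call.

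Genes of adipocytes gave mixed values. Cfd, the adipsin gene, was at 2.78, 2.27 and 2.96 RPKM in 24 h hearts, against 8.05, 6.12 and 5.73 RPKM in control hearts (log2 change -1.16, adjusted p = 0.0107 from limma). Cidec, a lipid droplet protein, fell also (log2 change -0.55, adjusted p = 0.0388), but not with median-ratio scaling (adjusted p = 0.0668) or in any fit with a heart left out. The defining gene Adipoq did not pass, at 1.07, 0.99 and 1.12 RPKM in 24 h hearts, against 2.01, 1.88 and 0.79 RPKM in control hearts, and the summed level of the 18 adipocyte markers in the table was 1107 to 1130 RPKM in 24 h hearts, against 968 to 1054 RPKM in control hearts, a sum dominated by Fabp4. The part of adipocytes in the low Cfd was not tested.

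Across the other lists, single genes passed, while 0.55% of all tested genes rose and 2.53% fell. These were Ldha of glycolysis (log2 change -0.30, adjusted p = 0.0395 from limma), Axin2 of Wnt signalling (-0.53, adjusted p = 0.0378) and the steroid-responsive genes Map3k6 (0.71, adjusted p = 0.0439) and Ampd3 (-0.45, adjusted p = 0.0292). Among endothelial markers Kdr, the main receptor for VEGF, fell (-0.46, adjusted p = 0.0332) and Ly6c1 rose (0.31, adjusted p = 0.0261), while the summed level of the 26 markers was 1922 to 2151 RPKM in 24 h hearts, against 1894 to 1909 RPKM in control hearts. With median-ratio scaling Ldha (adjusted p = 0.178), Axin2 (0.0774), Ampd3 (0.0702) and Kdr (0.094) lost their call, and Ldha, Axin2 and Map3k6 passed in none of the 6 fits with a heart left out. No gene passed in the lists of mRNA decay and deadenylation (48 genes), immediate early genes (25), ATF4 targets (26) or TGF-beta signalling (31). Of 5 tested erythroid and blood markers 0 passed, with a median log2 change of 0.75. The summed level of the 11 in the table was 1501 to 2933 RPKM in 24 h hearts, against 1001 to 1662 RPKM in control hearts, which overlapped. The part of blood content was not tested. Of the 38 lists with tested members, 17 had medians between -0.093 and -0.018 that changed sign with median-ratio scaling, so no direction is given for them.

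**Figure D5:**
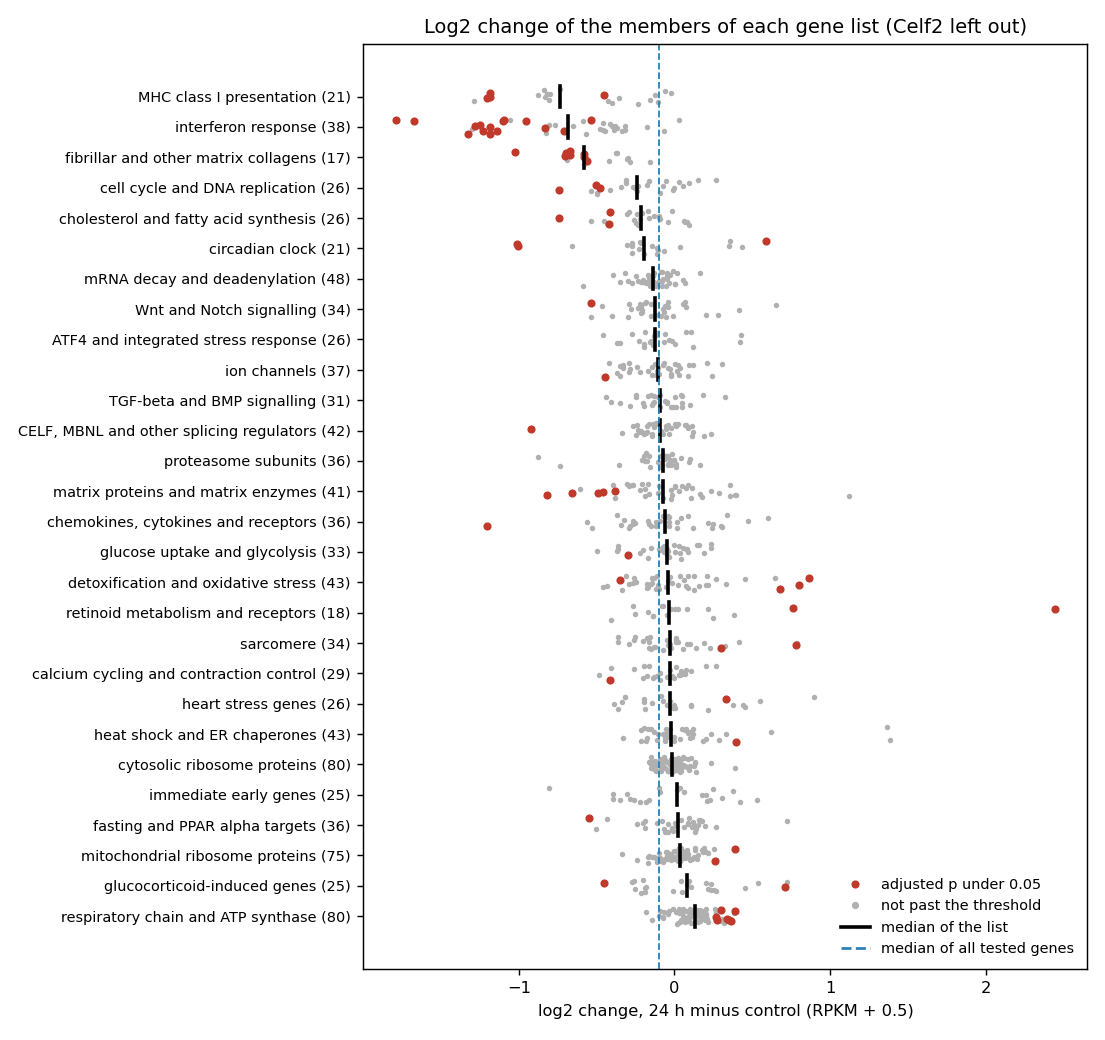
Log2 change, 24 h minus control, of the tested members of each pathway list (number in parentheses), with Celf2 left out. Red points passed at an adjusted p under 0.05, grey points did not, black bars are the list medians, and the dashed line is the median of all tested genes at -0.099. The medians of the class I, interferon and collagen lists, at -0.74, -0.68 and -0.58, stand to the left of the other lists.

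The genes that passed also differed in base composition. The 58 that rose had a median coding GC content of 49.7%, the 267 that fell one of 58.3%, and all tested genes one of 53.2%. Median coding lengths were 945 bases for the genes that rose, 1443 for those that fell and 1362 for all tested genes. Of the 267 lower genes, 136 lay in the bin with the highest coding GC content and 5 in the bin with the lowest, where 21 of the 58 higher genes lay. At the minimum level, the last genes left out were Tslp, Acot6 and Tgif2, each averaging 0.9983 RPKM, and the first kept were Mylpf, Bid and Prss53, each averaging 1.0 RPKM. Only 23 of the 58 higher and 51 of the 267 lower genes were members of any list. The genes outside the lists included Metrn, a secreted growth factor (log2 change -0.61, adjusted p = 0.0035), Scx, a tendon and fibroblast transcription factor (-0.83, adjusted p = 0.00745), and Gmnn, the replication inhibitor geminin (0.63, adjusted p = 0.005), which passed whichever heart was left out. These 3 and Mbnl1, Mbnl2, Loxl3, P4ha1, Aldh1a1, Igtp, Rsad2, Ifnar1, Csf1r, Cd74, Dcn, Adipoq, Fabp4, Bst2, Stat2 and Ifit1 were chosen after their values were seen. Exons of Snap47, Irf7, Dbp, Ccnd1, Ccnd3, Mcf2l, Adh1, Uqcrb, Col1a1, Col5a1, Ampd3 and Axin2 overlap those of a gene on the opposite strand, and those of Pcolce and Hspa8 overlap another gene on the same strand, so that their reads may not be wholly their own.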

How the data were processed

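Poly(A)+ RNA was sequenced with strand-specific paired-end reads, but whether strand was used in counting is not stated. The authors mapped the reads to mm9 (Bowtie and TopHat by the submitters' processing notes, without versions) and deposited RPKM values of 16199 genes by Entrez identifier. Of these, 16146 matched a current gene record, which gave the names, and for 68 the table lists no symbol. The table holds no read totals, so depth is unknown, and precision is described by the spread between hearts, which are separate animals. Labels that mention Celf1 are at odds with the genotype and were not used.

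With limma (version 3.58.1, R 4.3.3), a mean-variance trend was fitted to log2(RPKM + 0.5) of all 15 hearts in 5 groups with the title code as a factor. Genes averaging 1 RPKM or more in the 6 hearts were tested, with Benjamini-Hochberg adjustment over all of them, and those under 0.05 were called. The pseudocount of 0.5 shrinks the change of low genes. P-values are two-sided. The fit was also run on simulated data, with errors drawn independently for each gene and heart. These data held no shift of a single heart by scaling or coding GC content. They therefore do not bear on how such shifts move the counts. Coding GC content came from GENCODE transcripts on mm9, for 98.0% of genes. Python 3.11.15 was used with numpy 2.4.6 and scipy 1.17.1.

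The comparison, the 39 gene lists and the main design were chosen with earlier results of these data known, so a list's count is a description. Named genes are Celf2 and Celf1, genes called with and without the title code, the 12 largest increases and decreases among called genes with non-overlapping groups, and up to 4 called members of each list with the smallest adjusted p (up to 2 members where none was called). Values of some of these are left out for length, and some genes are not reported here. Alternatives were no title code, the 6 hearts alone, pseudocounts of 0.1 and 1, no filter or a minimum of 5 RPKM, median-ratio, upper-quartile and quantile scaling, Y-linked mRNA as a covariate, library weights and leaving out each heart. The coding-GC adjustment and joint alternatives were chosen after seeing the data.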

Additional observations from a re-analysis of the deposited data

How the results depend on the processing

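The called genes numbered 58 higher and 267 lower, and these counts moved with most settings, while Celf2 stayed called in all of them. Higher and lower genes numbered 4 and 6 without the title code, 17 and 120 in the fit of the 6 hearts alone, and 31 and 150 with Y-linked mRNA as a covariate. They numbered 132 and 85 with median-ratio, 106 and 98 with upper-quartile and 115 and 112 with quantile scaling, and 143 and 1152 with library quality weights. Leaving out 1 heart gave 8 to 36 higher and 28 to 213 lower genes, the fewest without 24 h heart 1 and, among controls, without control heart 1 (9 and 39). Of the alternatives chosen after seeing the data, median-ratio scaling with Y-linked mRNA gave 55 and 38, with control heart 2 left out 20 and 15, and with no title code 6 and 4. The coding-GC adjustment gave 83 and 40, and with control heart 2 left out 4 and 2. Pseudocounts, no filter and a minimum of 5 RPKM kept both counts within 1.5 times. With median-ratio scaling, 812 genes had every 24 h heart above and 779 every 24 h heart below the control hearts, against 292 and 1526 as deposited. The Celf2 ratio was 15.3, 20.3 within code A, 16.5 with median-ratio scaling, and 14.1 to 17.2 leaving out 1 heart. Of the 325 called genes, 56 passed with median-ratio scaling, with Y-linked mRNA and without control heart 2. No called gene that is named changed sign under any of these settings. The causes were not tested. No paired analysis was possible because the labels give no replicate numbers that pair single hearts of different groups. The title code links sets of hearts across the groups, and it is the factor in the fit whose removal is given above. Without read totals, values near 1 RPKM rest on an unknown number of reads.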
